A study of Arabidopsis thaliana with 8 samples.

Results

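The transcripts described here are abundant in dry seed of Arabidopsis, are far lower after 24 h of imbibition in water, and are lower by less when the water holds 30 µM abscisic acid (ABA). They were chosen by their measured signals: a mean of 200 or more in dry seed, a mean in water of at most 25% of that, a mean in 30 µM ABA of at least 1.8 times water, and both 30 µM arrays above both water arrays. The choice was limited to probe sets that name a single gene by its locus code, and 9 loci of LEA, storage, oleosin and heat shock type were left out by name. It found 104 probe sets, each for a different locus, of 11933 with a locus code and 22810 in all. Whole seed of the Col-0 accession was used throughout, and the groups are dry seed with no treatment and seed imbibed for 24 h in water, in 3 µM ABA or in 30 µM ABA, with 2 single-colour arrays each. Paired values below are in the order replicate A, replicate B. Whether the replicates of a group were separate lots of seed is not stated, so p-values measure only the spread between these arrays, which may be technical. The arrays in 3 µM ABA carry the title numbers 3A and 5B where those of every other group share a number.

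A seed dries at the end of maturation with a store of messenger RNA made while ABA was high. Much of that store encodes late embryogenesis abundant (LEA) proteins and other protectants against drying, proteins of oil bodies and storage vacuoles, and enzymes that limit oxidative damage. During imbibition the store is replaced by transcripts for growth, and added ABA restrains germination. ABA is bound by receptors that inhibit certain PP2C phosphatases, which frees kinases to activate bZIP factors such as ABI5. Many seed maturation genes are targets of these factors.

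The signal is the deposited brightness of a probe set on a linear scale, with each array scaled to a common trimmed mean of 100. Over all probe sets the median lay at 21.0 to 21.4 for dry seed and at 30.9 to 33.8 on the imbibed arrays. RNA quality can be read from the 3' to 5' signal ratio of a GAPDH control, which ran from 1.05 to 1.31 on the water arrays, from 0.884 to 0.974 on the ABA arrays and from 0.892 to 1.11 on the dry arrays. By this control both water arrays were above the 4 ABA arrays. By an older GAPDH control water replicate A had 0.927 and replicate B 0.371, on either side of the ABA arrays at 0.520 to 0.557. The dry arrays had 1.81 and 1.69 by that older control, above every imbibed array, and 1.05 and 0.895 by actin. By actin, water replicate A had 1.27 and replicate B 1.102, the latter within the ABA range of 1.01 to 1.18, and the part of these ratios in the results below was not tested. Of 27 tissue markers listed, 6 have a named probe set. The oleosin gene OLEO3, a marker of seed, had 919 and 618 in dry seed, the seed coat genes BAN and DFR had at most 16.3, and the guard cell lineage genes SPCH and MUTE, at most 3.30 in dry seed, had 12.02 to 52.2 in water. FMA, a later gene of that lineage, had a signal of 8.40 and 13.6 on the dry arrays against 9.97 and 9.04 on the water arrays. In whole seed, fewer cells of a type and less RNA per cell cannot be told apart, and at a single time neither can a slower loss of stored RNA and new synthesis.

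The median signal of the 104 members was 1528 and 1205 on the dry arrays, 39.9 and 48.4 in water, 54.4 and 103 at 3 µM ABA, and 124 and 147 at 30 µM ABA. In 30 µM ABA the median member kept 13.5% of its dry level, against 4.68% in water, and the members spanned 0.799% to 44.4%. The 30 µM mean was 1.804 to 12.7 times the water mean, with a median of 2.84, and was at least 3 times water for 48 members. These levels follow from the choice and carry no test. The name given to the group holds only in part, since both dry arrays lay above all 6 imbibed arrays for every member and 39 of them were under 10% of dry in 30 µM ABA, while 26 kept 25% or more. For these 3 groups limma called 104 of 104 members lower in water than in dry seed (28.5% of all probe sets tested), 104 lower in 30 µM ABA than in dry seed (26%) and 26 higher in 30 µM ABA than in water (0.415%), which are counts from the contrasts that chose the members. The count of 26 was 0 without any 1 of the water or 30 µM arrays and 46 to 47 without a 3 µM array. The number of members by the rule itself was 150 without water replicate B and 98 to 123 without any 1 of the other arrays.

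**Figure D1:**
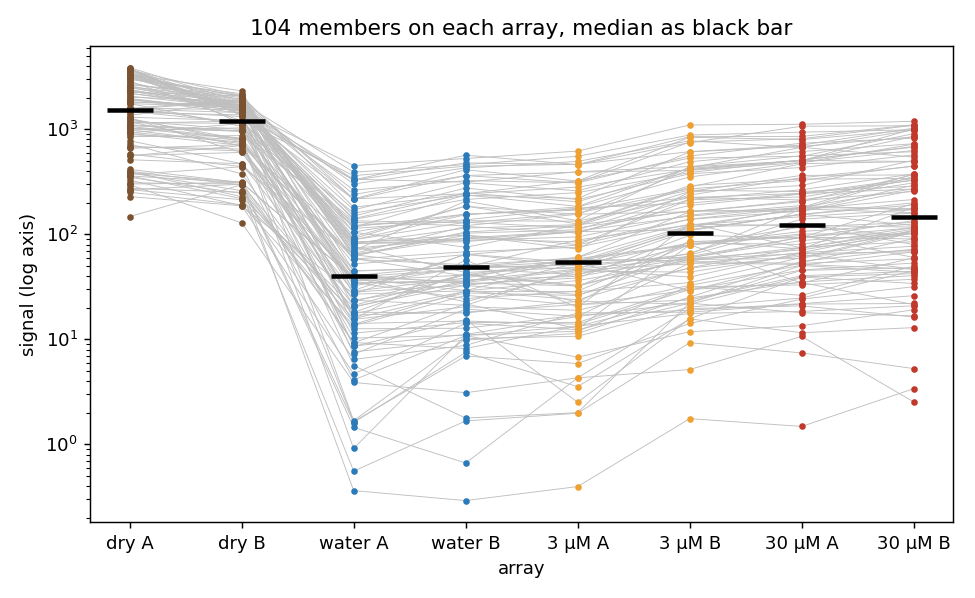
Signal of the 104 members (points, joined by grey lines) on each of the 8 arrays, on a log axis, with the median as a black bar. The medians run from 1528 and 1205 in dry seed to 39.9 and 48.4 in water and 124 and 147 at 30 µM ABA, and the 3 µM arrays differ from each other at 54.4 and 103.

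The families named below are background knowledge of the Arabidopsis annotation, since the tables used here hold locus codes without product names. They cover 44 members, were drawn up after the values were seen, and are described by values and counts alone, with every member of the 7 families named. The largest of them protects cells against drying, with 9 members of which 7 are LEA genes. In 30 µM ABA these 9 kept 8.49% to 44.4% of their dry level, with a median of 30.8% against 9.75% in water. AT3G53040, a LEA gene, had a signal of 3168 and 1740.0 in dry seed, 69.7 and 207 in water, 135 and 439 at 3 µM ABA and 502 and 1010.3 at 30 µM ABA. Its 30 µM mean was 5.46 times water, but water replicate B lay above 3 µM replicate A. AT3G17520, also of the LEA type, had 3682 and 1519 in dry seed, 452 and 527 in water, 620.3 and 1099 at 3 µM ABA and 1117 and 1192 at 30 µM ABA. It kept 44.4% of its dry level, the highest share of any member, and had the highest 30 µM mean among them. AT4G21020, a LEA gene that kept 42.5%, had 362 and 445 in water against 707 and 1026 at 30 µM ABA. The dry arrays of AT3G17520 and AT4G21020 differed by more than 2 times, with replicate A the higher. AT2G18340, with a LEA domain, was lower throughout, at 1022 and 959.5 in dry seed, 17.5 and 28.7 in water, 28.4 and 34.7 at 3 µM ABA and 60.2 and 108 at 30 µM ABA. AT4G25580, whose spinach relative CAP160 is induced by drought and cold, had the highest ratio of the 9. Its signal was 2797 and 1656 in dry seed, 29.3 and 64.3 in water, 49.9 and 116 at 3 µM ABA and 180.3 and 375 at 30 µM ABA, a mean 5.93 times water. AT1G47980, related to a desiccation protein of the resurrection plant Craterostigma, had 171 and 310.4 in water and 614 and 728 at 30 µM ABA after 2207 and 1559.9 in dry seed. AT1G72100, AT5G44310 and AT1G22600, also of the LEA type, were 3.35, 2.82 and 2.83 times water in 30 µM ABA.

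Oil body and storage proteins gave 5 members, which kept 6.47% to 41.3% of dry in 30 µM ABA. AT2G28490, of the cupin storage protein family, had 3809.9 and 1392 in dry seed, 327 and 479 in water, 461 and 747 at 3 µM ABA and 1069 and 1081 at 30 µM ABA. The 30 µM arrays were nearly equal, while dry replicate A was more than 2 times replicate B. AT2G25890, an oleosin of the oil body surface, had 3269 and 1652, 217 and 412, 322 and 839.7 and 798 and 989 in the same order of groups. Its 3 µM arrays straddled the water and 30 µM arrays, with replicate A below water replicate B and replicate B above 30 µM replicate A. AT5G16460 encodes a seipin, a protein of the endoplasmic reticulum that acts in lipid droplet formation. Its signal was 1065 and 822 in dry seed, 41.4 and 33.7 in water, 38.4 and 98.1 at 3 µM ABA and 92.0 and 135 at 30 µM ABA. AT5G45690 and AT1G29680, of a family found on oil bodies, were 4.90 and 3.05 times water in 30 µM ABA. The former had 81.7 and 115 in water and 470.2 and 493 at 30 µM ABA, the latter 40.5 and 50.5 and 156 and 121.

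Enzymes of reduction and oxidation gave 6 members, at 2.11 to 6.51 times water in 30 µM ABA. AT5G01670, an aldo-keto reductase, a family that detoxifies reactive aldehydes, had the highest dry mean of all members. Its signal was 3663 and 2085 in dry seed, 69.9 and 103 in water, 110.4 and 237 at 3 µM ABA and 346 and 444 at 30 µM ABA. The 4 groups did not overlap, and 30 µM ABA kept 13.8% of dry. AT3G56350, of the manganese superoxide dismutase family, which removes superoxide, had 215 and 362 in water, 309 and 557 at 3 µM ABA and 738 and 824 at 30 µM ABA after 3733 and 1368 in dry seed. AT2G29300, a short-chain dehydrogenase, had 1499 and 1323, 15.8 and 27.7, 26.2 and 63.4 and 123 and 93.6 in dry seed, water, 3 µM and 30 µM ABA. AT5G54000, of the 2-oxoglutarate-dependent dioxygenases, had 1028 and 809 in dry seed, 1.65 and 6.94 in water and 24.2 and 31.7 at 30 µM ABA. The ratio of AT5G54000 is the highest of the 6 at 6.51. AT3G05260 and AT3G26770, also short-chain dehydrogenases, were 3.44 and 2.11 times water.

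Transcription and chromatin gave 5 members, at 1.81 to 4.38 times water. AT5G18450 encodes an AP2/ERF factor of the DREB type, a class that binds drought-response elements. Its signal was 2665 and 2102 in dry seed, 61.9 and 105 in water, 121 and 256 at 3 µM ABA and 364 and 368 at 30 µM ABA. All 4 groups were apart, and the 30 µM arrays were nearly equal. AT1G75490, of the same DREB type, started as high in dry seed at 3206 and 2054 but had 44.9 and 48.6 in water, 55.3 and 118 at 3 µM ABA and 124 and 80.0 at 30 µM ABA. It kept 3.88% of dry in 30 µM ABA against 15.3% for AT5G18450, and its 3 µM and 30 µM arrays overlapped. AT1G08170, of the histone H2B family, had 1762 and 1065 in dry seed, 11.4 and 14.4 in water, 14.5 and 31.5 at 3 µM ABA and 33.0 and 37.4 at 30 µM ABA, which is 2.49% of dry. The VQ motif gene AT3G56880 and the AP2/ERF gene AT1G36060 were nearest to the limit of 1.8 in this family, at 1.85 and 1.81.

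Signalling and protein turnover gave 8 members, among them 3 of the 7 highest ratios over water, all from members whose 30 µM mean was 47.0 or less. AT2G34740 encodes a PP2C-family phosphatase that is not among the phosphatases of the ABA pathway list described below. Its signal was 1608 and 1135 in dry seed, 5.63 and 1.78 in water, 2.01 and 22.3 at 3 µM ABA and 50.6 and 43.3 at 30 µM ABA. The ratio of 12.7 is the highest of all members, and 30 µM ABA kept 3.42% of dry, so the level stayed low in absolute terms. The 3 µM arrays split, with replicate A within the water range and replicate B above it. AT5G04010, an F-box gene of the class that selects proteins for degradation, had 889 and 799 in dry seed, 0.914 and 10.9 in water, 11.96 and 32.0 at 3 µM ABA and 26.2 and 49.8 at 30 µM ABA. AT2G38900, a serine protease inhibitor of the potato inhibitor type, had 1.45 and 0.665 in water and 10.7 and 2.54 at 30 µM ABA after 266 and 300.1 in dry seed. AT2G45040, of the matrix metalloproteinase family, had 0.557 and 1.67 and 7.43 and 5.27 after 348 and 245. Ratios of 6.23 and 5.70 for this inhibitor and this protease therefore rest on signals of 10.7 or less in imbibed seed. Brighter in this group was AT1G15330, with a CBS domain, at 217 and 244 in water, 323 and 532 at 3 µM ABA and 554 and 908 at 30 µM ABA after 2672 and 2004 in dry seed. AT1G30860 of the RING type, the SINA-like AT5G62800 and the receptor-like kinase gene AT5G59700 were 3.70, 2.85 and 2.41 times water.

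Other enzymes gave 8 members and membrane proteins 3. AT5G65550, a UDP-glycosyltransferase, had 1920.5 and 1424 in dry seed, 39.3 and 35.3 in water, 57.0 and 78.6 at 3 µM ABA and 117 and 129.7 at 30 µM ABA, with no overlap between groups. AT5G66430, of a methyltransferase family that acts on small acids, had 10.3 and 10.9, 13.3 and 24.7 and 35.2 and 40.4 in water, 3 µM and 30 µM ABA. AT5G17540, an acyltransferase gene, was the dimmest member at 0.363 and 0.292 in water and 1.48 and 3.39 at 30 µM ABA after a dry mean of 305. Its ratio of 7.44 compares signals too low to read as a level. Of the rest of the enzymes, the strictosidine synthase-like gene AT3G57020, the lipase-type AT1G02660, the glycosyl hydrolase AT4G34480, the O-methyltransferase AT1G24735 and the O-fucosyltransferase AT5G65470 were 2.36, 2.49, 2.27, 1.92 and 1.998 times water in 30 µM ABA. AT2G38905 encodes a small hydrophobic membrane protein of the RCI2 type, a family known from cold and salt stress. It had 3072 and 1699 in dry seed, 302 and 429 in water, 495 and 777 at 3 µM ABA and 669 and 983 at 30 µM ABA. The MATE efflux gene AT3G03620 had 63.5 and 92.5, 107 and 149 and 181 and 272 in the 3 imbibed groups, with no overlap. AT5G17850, a cation exchanger gene, had 44.7 and 48.2, 51.4 and 61.4 and 93.6 and 116 in that order, also apart.

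No family is given for the other 60 members, whose dry means ran from 208 to 2839. In 30 µM ABA they kept 2.02% to 38.9% of dry, with a median of 12.2% against 4.46% in water. AT3G15280 had 3344 and 2322 in dry seed, 28.8 and 38.3 in water, 60.4 and 164 at 3 µM ABA and 205 and 370.5 at 30 µM ABA. Its groups did not overlap, and the 30 µM mean of 288 ± 117 (SD, n = 2) was 8.57 times water, the highest ratio among members with a 30 µM mean of 50 or more. AT2G19320 had 559.6 and 699, 7.60 and 9.85, 11.4 and 25.2 and 55.4 and 72.3 in dry seed, water, 3 µM and 30 µM ABA. AT5G05220 had 1.68 and 10.2 in water and 24.7 and 45.1 at 30 µM ABA, 2.02% of its dry level. A further 4 loci were among the brightest in dry seed, and each kept a different share in 30 µM ABA. AT5G07330 kept 34.0%, at 939 and 989.8 after 3868 and 1809.6. AT1G27990 kept 22.8%, at 480.3 and 721 after 3369 and 1892. AT1G54860 kept 18.5% and AT3G21380 12.2%. AT1G02700 and AT2G21820 were among the 6 brightest members in 30 µM ABA, at 814 and 1092 and at 856 and 1103, after 264 and 325 and 329 and 567 in water.

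**Figure D2:**
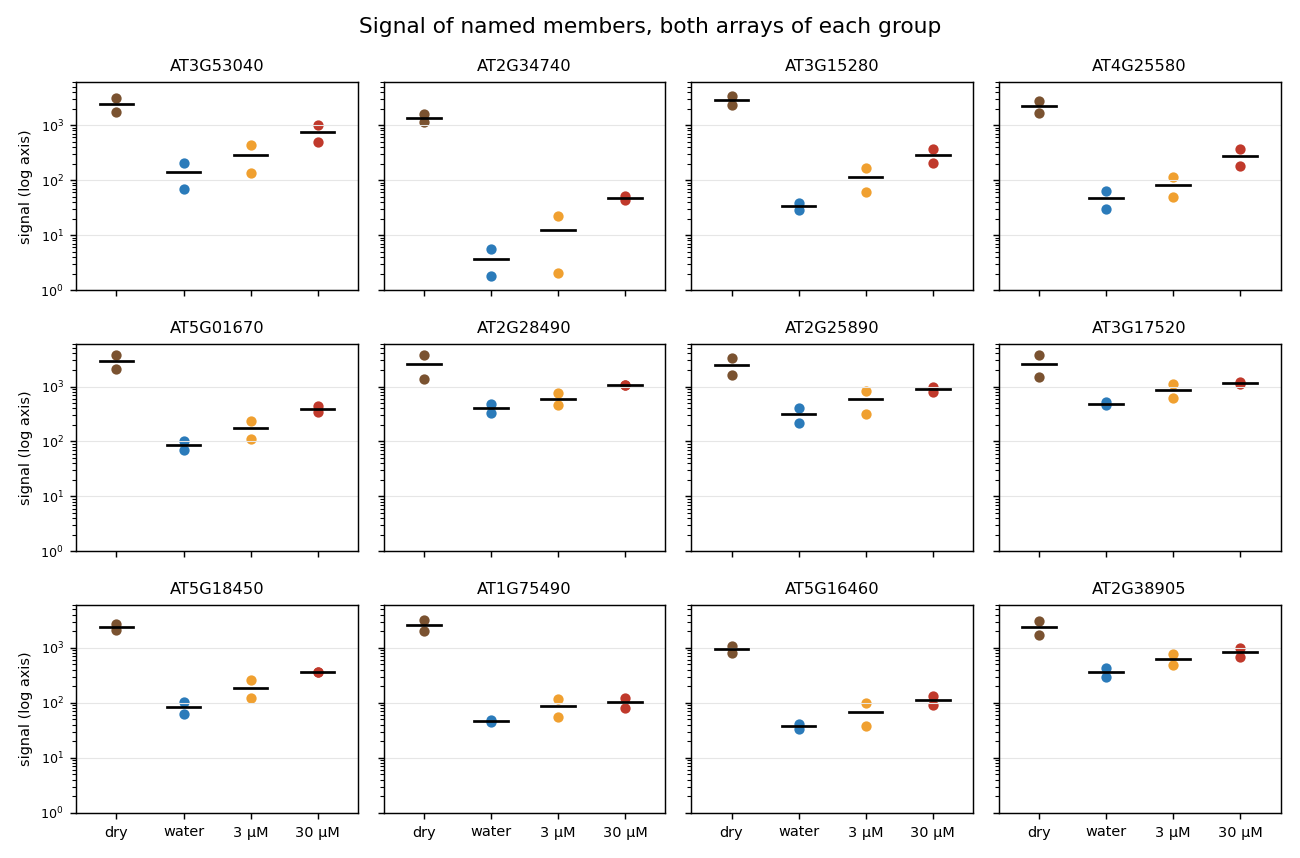
Signal of 12 members on both arrays of each group (points) with the mean (bar), on a shared log axis. AT2G28490 and AT3G17520 stay near 1000 at 30 µM ABA, at means of 1075 and 1154, while AT2G34740 lies at 47.0.

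**Figure D3:**
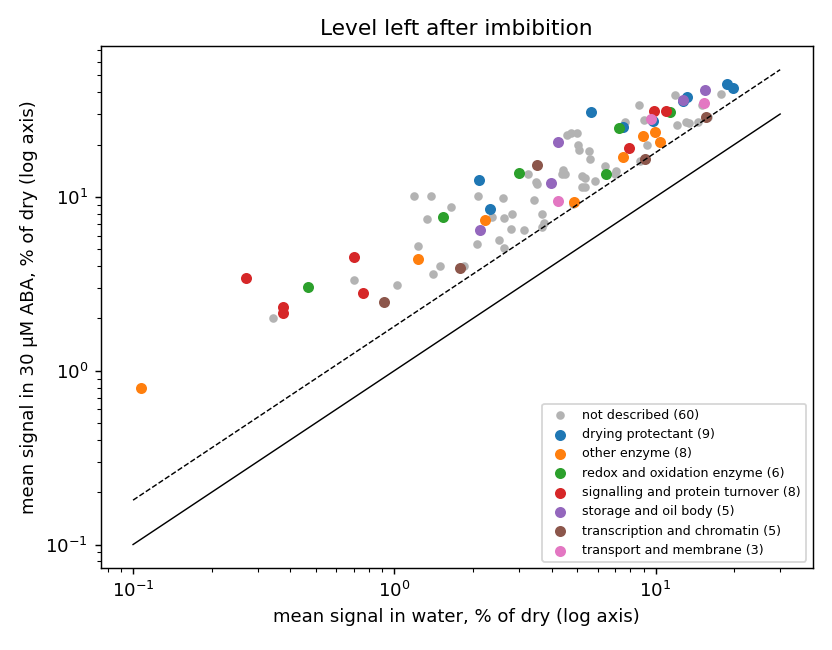
Mean signal in 30 µM ABA against mean signal in water, both as % of the dry mean on log axes, by family with the number of members. The solid line marks equal levels and the dashed line the limit of 1.8 times water, and the members spread from 0.107% to 19.8% of dry in water and from 0.799% to 44.4% in 30 µM ABA.

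The 3 µM arrays were not used to choose the members, so they offer a measurement partly independent of the choice, although any contrast with them takes its other side from arrays that were used. The mean in 3 µM ABA was above the water mean for 102 members, with AT5G04500 and AT3G16120 as the exceptions, and below the 30 µM mean for 104. The median member was 1.70 times water in 3 µM ABA and stood at 56.9% of its 30 µM level. Both 3 µM arrays lay above both water arrays for 56 of 104 members, against 21.2% of all probe sets. They lay below both 30 µM arrays for 81, against 12.8%, and between the groups with no overlap for 44, against 2.12%. The choice of low water and high 30 µM arrays raises each of these counts by itself. In limma 0 of 104 members were called higher in 3 µM ABA than in water (0% of all probe sets); unadjusted p was under 0.05 for 35, beside 471 higher of all 15922 probe sets tested, and the adjusted p was 0.999 for each. The median log2 change of the members was 0.65, against 0.03 for all probe sets. Between 30 µM and 3 µM ABA 0 of 104 were called (0% of all probe sets); unadjusted p was under 0.05 for 63, beside 348 higher of all 15922 tested, and the median change was 0.79 against -0.02. Without 3 µM replicate B the median change from water was 0.24 and that up to 30 µM ABA 1.13, and without replicate A they were 0.99 and 0.46. Compared with dry seed, where the members are high by choice, 104 were called lower in 3 µM ABA (26.7% of all probe sets), and both 3 µM arrays lay below both dry arrays for 104 (29.1%).

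Members differed in how far 3 µM ABA reached towards 30 µM. AT1G72660 had 12.4 and 22.1 at 3 µM ABA and 17.9 and 16.7 at 30 µM ABA, with 4.69 and 14.2 in water. AT1G13340 had 12.6 and 79.6 and 34.5 and 59.6, with 3 µM replicate B above both 30 µM arrays and replicate A within the water range of 9.29 and 21.8. AT4G17840 had 58.3 and 68.2 in water, 75.4 and 125 at 3 µM ABA and 121 and 117 at 30 µM ABA, with both 3 µM arrays above water and replicate B above both 30 µM arrays. At the other end AT5G04500 had 8.58 and 15.4 in water, 2.52 and 15.7 at 3 µM ABA and 39.2 and 34.0 at 30 µM ABA. AT3G16120 had 76.5 and 43.3, 48.6 and 64.9 and 175 and 161 in the same order, so that its 3 µM arrays lay within the water range and well below 30 µM. The change of AT3G16120 from 3 µM to 30 µM was 1.51 ± 0.25 (SE) on the log2 scale, with an adjusted p of 0.579 in limma.

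The 3 µM arrays stood apart from each other for these members. Replicate B was above replicate A for 99 of 104, by a median of 1.77 times, against 55.3% and 1.05 times for all probe sets. The 5 exceptions were AT5G58160, AT3G63040, AT4G34480, AT1G36060 and AT2G19930, named after their values were seen. Replicate A was above both water arrays for 57 members and replicate B for 102. The choice of low water arrays raises both counts. The matching shares of all probe sets were not computed, so the counts cannot be set against the whole array. Replicate B was also the higher for 84 members in water, by a median of 1.32 times, and for 84 at 30 µM ABA, by 1.21 times, where it was the higher for 50.8% and 43.1% of all probe sets. In dry seed it was the higher for 14, at a median of 0.763 times replicate A. Between arrays of the same letter, 3 µM was above water for 95 members by a median of 1.42 times in A, and for 104 by 1.85 times in B. Of all probe sets, 55.2% were above in A and 58.1% in B, at medians of 1.04 and 1.07 times. The step from 3 µM to 30 µM went the other way, at 2.29 times in A (104 members above) and 1.55 times in B (92 members above). Of all probe sets, 49.5% and 39.6% were above, at medians of 0.997 and 0.927 times. So the place of 3 µM ABA between water and 30 µM depends on the array, nearer to water in A and about midway in B. The spike-in control signal also differed between the 3 µM arrays, at a geometric mean of 128 and 189, and was 168 and 209 in water and 190 and 247 at 30 µM ABA. Its part in the gap was not tested beyond rescaling. With arrays scaled to these controls the median ratio of replicate B to replicate A was 1.197 at 3 µM ABA, 1.06 in water and 0.929 at 30 µM ABA, with B the higher for 72, 58 and 43 members. In dry seed the ratio moved further from 1, from 0.763 to 0.712, with B the higher for 9 members. With this scaling 95 members had both 3 µM arrays above both water arrays, and 53 had both below both 30 µM arrays. The shares of all probe sets were not computed in that scaling, so these counts cannot be read as particular to the members. In that scaling limma called 2 members higher in 3 µM ABA than in water, AT5G04010 and AT3G15280. Another 2, AT5G04500 and AT2G34740, were called higher in 30 µM than in 3 µM ABA. Of all probe sets, 28 and 10 were called in these contrasts in either direction. This scaling also moved all probe sets, by a median log2 change of 0.28 between 3 µM ABA and water and -0.47 between 30 µM and 3 µM ABA. The members' medians for these contrasts were then 0.90 and 0.34.

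**Figure D4:**
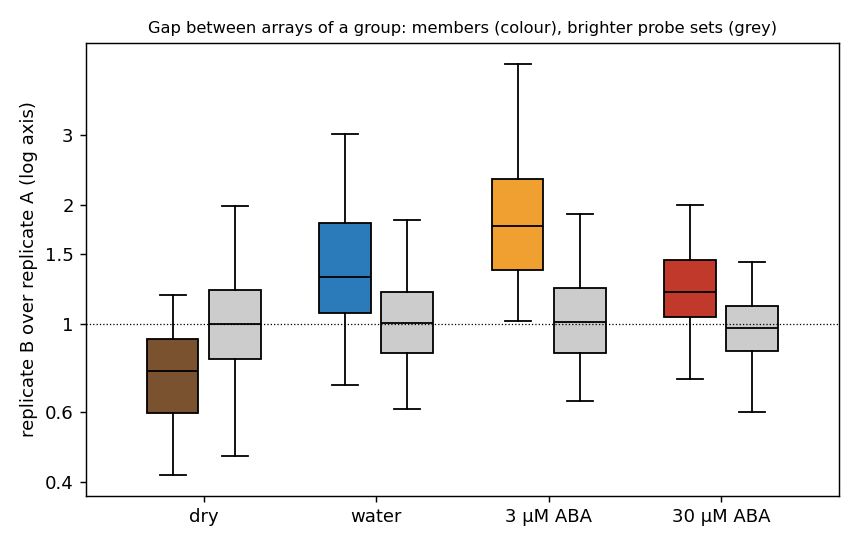
Ratio of replicate B to replicate A in each group on a log axis, for the members (colour) and for the 15922 probe sets kept for testing (grey), as median, quartiles and the range from the 5th to the 95th percentile. The members' medians are 0.763 in dry seed, 1.32 in water, 1.77 in 3 µM ABA and 1.21 at 30 µM ABA, while the grey medians lie between 0.977 and 1.01.

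Of 401 loci that passed the dry and water limits of the rule, 25.9% are members, 30.2% had a 30 µM mean under 1.2 times water, and the rest met neither condition. Those 121 loci with little or no gain in ABA serve as a comparison set. They were less abundant in dry seed, with a median of 557 against 1412, and kept more of it in water, with a median of 18.6% against 4.68%. Dry and water levels were used to choose both sets, and a low water signal raises the ratio that divides them. These differences are therefore a description and carry no test. The array medians of the comparison set were 93.2 and 99.4 in water, 94.9 and 109 at 3 µM ABA, and 100.5 and 107 at 30 µM ABA. Replicate B was thus the higher there too, by less. The water limit played little part, since the member with the highest share in water, AT4G21020, stood at 19.8%, and raising the limit from a share of 25% of dry to 50% added 0 loci.

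A feature that the rule did not use is the length of the gene. The median RefSeq gene length of the members, introns included, was 1554 bases, against 2174 for the comparison set and 2092 for 11885 probe sets with a locus code and a length. Genes under 1500 bases made up 48.1% of the members, 17.4% of the comparison set and 29.0% of the latter. The shortest were AT2G19320 at 418 bases and AT2G38905 at 471, and the longest AT3G03790 at 6403 and AT5G58160 at 6367. Length also differed with dry level, and among loci with a dry mean of 1000 or more the medians were 1554 for 66 members, 2049 for 26 of the comparison set and 1816 for all 218. Across the members, length and the ratio of 30 µM to water had a Spearman correlation of -0.31 (n = 104 genes on the same arrays), given as a description.

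**Figure D5:**
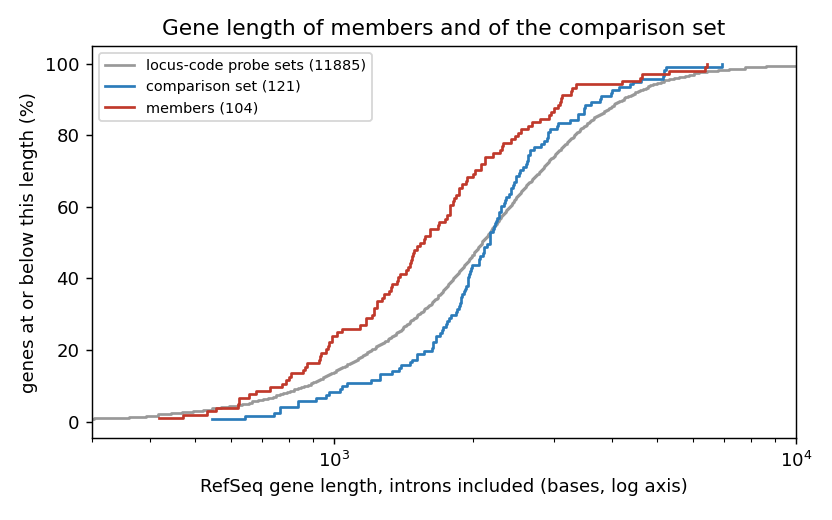
Cumulative share of genes (%) by RefSeq gene length in bases on a log axis, for the 104 members, the 121 loci of the comparison set and 11885 locus-code probe sets. The curve of the members lies to the left, with medians of 1554, 2174 and 2092 bases in that order.

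The members lay on all 5 chromosomes, with 26, 15, 19, 13 and 31 on chromosomes 1 to 5. Chromosome 5 held 29.8% of them and 22.5% of locus-code probe sets. In the RefSeq order of protein-coding genes 2 pairs were direct neighbours. In the pair AT2G38900 and AT2G38905, the inhibitor and RCI2-type genes, 30 µM ABA kept 2.33% and 34.6% of dry. AT5G04000 and AT5G04010 kept 26.9% and 4.50%.

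The limits of the rule divide a continuous range. Just inside the dry limit were AT5G18470, AT3G30460 and AT1G02660 at means of 208, 212 and 221, and just outside AT5G38780 and AT2G31130 at 196 and 195.5. Just inside the limit on the ratio were AT5G52420, AT1G36060 and AT1G72660 at 1.804, 1.808 and 1.83, and just outside AT1G70810 and AT2G38800 at 1.798 and 1.796. The signals alone were met by 238 probe sets, of which 108 are unnamed here, 7 name several genes, 12 name a gene by another symbol and 7 belong to omitted loci.

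Genes of the ABA pathway could be set beside the members only in small part, since 4 of 66 genes listed, from receptors to targets, had a named probe set. Of these 4, limma called EEL, a bZIP factor of seed maturation, higher in 30 µM ABA than in water, by 1.095 on the log2 scale (adjusted p = 0.0445), and 0 in 3 µM ABA. The call of EEL was lost without either water array and without 30 µM replicate B, since 0 of all probe sets were then called. EEL had 471 and 497 in dry seed, 37.6 and 31.8 in water, 44.6 and 59.5 at 3 µM ABA, and 78.4 and 78.3 at 30 µM ABA. BZIP53, a bZIP factor of the maturation programme, had 98.9 and 80.1 in water, 95.6 and 138 at 3 µM ABA, and 133 and 153 at 30 µM ABA. M17, a LEA gene, had 158 and 369, 217 and 529, and 571 and 635 in these groups, and the dehydrin gene LTI30 had 38.7 and 104, 44.2 and 239, and 148 and 319. In M17 and LTI30 3 µM replicate A lay within the water range and replicate B above it. The 4 genes with a probe set had a median log2 change of 1.199 between 30 µM ABA and water, against 0.02 for all probe sets. EEL, M17 and LTI30 themselves meet the signal limits of the rule and are not members because they carry a symbol. The list was also drawn up with earlier results of these data known, so this median is a description and not separate support.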

How the data were processed

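RNA of whole seed was hybridised to 8 single-colour arrays, 2 in each of 4 groups. The values are intensity signals on a linear scale, made by the authors with MAS5 per the submitters' processing notes and deposited as 1 table, and their trimmed mean is 100 on every array. Background correction and detection calls were not analysed here, so signals near 0 have no stated limit, and the number of arrays limits the precision. Gene names came from the platform annotation supplied with the data, in which 13513 probe sets have 1 gene, 503 several and 8730 none, and all 104 members matched the RefSeq table of assembly TAIR10.1, used for chromosome, gene length and order.

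Signals were tested with limma 3.58.1 in R 4.3.3 on log2(signal + 3.99), where 3.99 is the 20th percentile of all values, so folds of low genes are understated. Probe sets over the 30th percentile of mean log2 signal were kept (15922 of 22746, all 104 members among them), all 8 arrays entered 1 fit with an intensity trend and 4 residual degrees of freedom, tests were two-sided, and calls are at a Benjamini-Hochberg adjusted p under 0.05 over all kept probe sets. An exact permutation test of 2 arrays against 2 cannot go below 0.333, so none is given. The fit was tested on simulated data. The members and lists were chosen with earlier results of these data known. Genes were named by a fixed rule: the 8 highest ratios of 30 µM ABA to water, the 6 highest dry and the 6 highest 30 µM means, the 5 highest and 5 lowest ratios of 3 µM to 30 µM ABA, and those nearest to each limit; the other members of the 7 families were added after their values were seen. Alternatives were other scalings, pseudocounts, filters, limits of the rule, a letter block and each array left out. Promoter motifs, protein features and product classes that had been planned were not analysed here.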

Additional observations from a re-analysis of the deposited data

How the results depend on the processing

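With a ratio limit of 1.5 or 2.5 the rule found 167 or 65 members, and 98 to 150 without any 1 array. Of the members, 26 were called higher in 30 µM ABA than in water; this was 53 with spike-in scaling, 41 with a replicate block, 10 with a pseudocount of 1, 4 with no filter on low values, 0 with no intensity trend (limma), and 0 to 47 without any 1 array, the lone array of a group then being assumed to vary like the other groups. Deviations of same-lettered arrays correlated at 0.09 to 0.31 among the imbibed groups and at -0.08 to 0.06 with dry seed. The letters were not treated as pairs, though for most members replicate B was the higher in each imbibed group and replicate A in dry seed. The block fits 1 letter effect over all 4 groups, so it cannot represent a pairing of the imbibed arrays alone. It left the members' other call counts as they were and took all probe sets called between 30 µM ABA and water from 72 to 135. That count of 72, in either direction, also moved. It was 203 with spike-in scaling, 38 with a pseudocount of 1, 11 with no filter on low values and 2 with no intensity trend. So the members' count moved with the calls on the whole array. Spike-in scaling gave 2 member calls between 3 µM ABA and water (28 of all probe sets). It also gave 2 between 30 µM and 3 µM ABA (10). It put both 3 µM arrays above water for 95 members and below 30 µM for 53. Without shares of all probe sets, these counts cannot be read as particular to the members. All probe sets also moved, by a median log2 change of 0.28 and -0.47 in these contrasts. The median log2 change was -4.29, -4.84 and -3.53 for 3 µM ABA, water and 30 µM ABA against dry seed with a common median, and -2.54, -3.43 and -2.20 with spike-in scaling; for 30 µM ABA against dry seed it was -2.60 with quantile scaling. For 30 µM ABA against water it was 1.26 with spike-in scaling and 1.17 with a pseudocount of 16, which gave -3.96 for water against dry seed. Without any 1 array, the median ranged from -3.10 to -2.67 for 30 µM ABA against dry seed, from -4.60 to -4.07 for water against dry seed, and from 1.16 to 1.55 for 30 µM ABA against water. A common median moved the median of all probe sets against dry seed to between -0.41 and -0.33, and spike-in scaling to between 0.77 and 1.27. None of the results reversed, and 185 other values stayed within 1.5 times the main count or within the spread. Among the 185, members called lower than in dry seed for 30 µM ABA fell from 104 to 93 with spike-in and 96 with quantile scaling. They fell to 99 with no filter on low values and 99 with no intensity trend. All probe sets called in that contrast, in either direction, went from 9995 to 9229, 9869, 10013 and 9868 in these settings. For 3 µM ABA with spike-in scaling the members fell to 99, while all probe sets went from 10287 to 11576. The member counts also fell without some single arrays. By spike-in scaling the rule found 74 members. The cause of the changes was not tested. Among the 80 members with a 30 µM mean of 50 or more, chosen after seeing the data, both 3 µM arrays were above both water arrays for 42 and below both 30 µM arrays for 67. Shares of all probe sets were 21.2% and 12.8% without that limit and were not computed with it. The limit by itself favours 3 µM arrays below 30 µM. Motif windows were not run.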
